A study of Rattus norvegicus with 10 samples.

Results

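The genes described here are 10 transcripts of the endoplasmic reticulum (ER) folding machinery and the unfolded protein response, measured in kidney cortex of Dahl salt-sensitive rats. They were chosen by symbol and are Hspa5, Hsp90b1, Calr, Canx, Pdia3, Pdia4, Pdia6, Sdf2l1, Herpud1 and Xbp1, which make up 10 of the 32545 genes in the deposited table. Each symbol had a single gene ID, and all 10 were among the 14508 genes with a mean of at least 0.5 FPKM (fragments per kilobase of gene, scaled to library size) that were tested. The oxonic acid group of 5 libraries came from rats that ate 4% NaCl with 2% oxonic acid for 3 weeks, and the other 5 libraries came from rats that ate 4% NaCl alone, labelled vehicle. All rats were of the SS/JrHsdMcwi strain, an inbred line whose blood pressure climbs with dietary salt. Their genotype is labelled wild type, and they had telemeters implanted at 8 to 9 weeks of age. They ate 0.4% NaCl until the switch, and blood pressure was recorded for 4 days on that diet. Oxonic acid blocks uricase, the rodent enzyme that breaks down uric acid, so the comparison bears on cortex transcripts under salt loading with and without that enzyme blocked. Both sexes were used, and the sex of each library is not stated in the labels. The libraries are of whole cortex, so fewer cells of a type and less RNA per cell cannot be told apart. Nothing in the labels ties each library to its own rat, so p-values measure the spread between these samples, which may be technical.

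Proteins that enter the ER are folded by a set of abundant chaperones. When unfolded proteins build up, the sensors ATF6, IRE1 and PERK leave the chaperone BiP and switch on genes that widen folding capacity and clear misfolded proteins. ATF6 travels to the Golgi, is cut there, and acts with the CCAAT-binding factor NF-Y on ER stress response elements in chaperone promoters. IRE1 splices Xbp1 mRNA so that it encodes an active transcription factor, and PERK slows translation while favouring ATF4. In the kidney, tubule cells carry large loads of membrane and secreted protein, and this response is studied in proteinuric and ischaemic injury.

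Matches to the ER stress response elements in the promoters are shown first, since these letters are known as the sites through which the response reaches chaperone genes. Promoter windows of 300 bases (250 before and 50 after the start used by RefSeq, build GRCr8) matched 8 of the 10 genes by symbol, and none was matched for Pdia3 or Pdia6. For Canx and Herpud1 that start lies 97 and 9461 bases inside the outer edge of the RefSeq gene. The windows were searched on both strands for ERSE (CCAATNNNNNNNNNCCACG), ERSE-II (ATTGGNCCACG) and the core TGACGTGG. ERSE and ERSE-II share their last 5 letters, and no match overlapped another in these windows. ERSE was in 5 of the 8 windows, against 0.0657% of all 33469 promoter windows, and ERSE-II was in 1 of 8, against 0.0508%. TGACGTGG was in 0 of 8 windows and in 0.595% of all. The matches are printed 5′ to 3′ on the strand of the gene with up to 20 bases on each side, and capitals mark the element. Those of Calr and the second of Hsp90b1 run on the opposite strand.
Hspa5, chr3:38452953-38453011, plus strand: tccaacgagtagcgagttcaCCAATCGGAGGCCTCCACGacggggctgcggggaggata
Hsp90b1 first match, chr7:23012431-23012489, minus strand: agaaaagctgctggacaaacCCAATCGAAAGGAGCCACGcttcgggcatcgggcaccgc
Hsp90b1 second match, chr7:23012327-23012385, minus strand: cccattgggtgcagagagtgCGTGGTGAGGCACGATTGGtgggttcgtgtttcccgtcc
Calr, chr19:40213117-40213173, plus strand: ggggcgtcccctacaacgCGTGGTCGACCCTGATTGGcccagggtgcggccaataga
Canx, chr10:35158049-35158107, minus strand: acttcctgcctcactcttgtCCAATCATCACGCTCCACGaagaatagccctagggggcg
Xbp1, chr14:84604538-84604596, plus strand: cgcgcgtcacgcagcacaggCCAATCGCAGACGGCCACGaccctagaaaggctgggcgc
Herpud1 (ERSE-II), chr19:10614801-10614851, minus strand: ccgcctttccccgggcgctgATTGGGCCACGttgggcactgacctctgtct

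**Figure D1:**
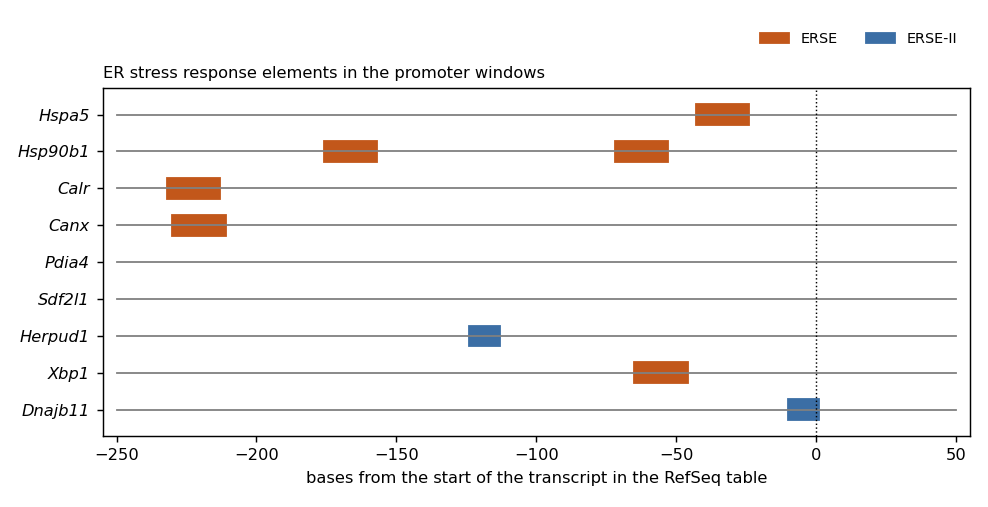
Position of ERSE (orange) and ERSE-II (blue) in the promoter windows of the 8 matched genes and of Dnajb11, in bases from the RefSeq start (dotted line at 0, window from 250 bases before to 50 after). Pdia4 and Sdf2l1 hold no match, and Hsp90b1 holds 2.

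The element began 43 bases before the start in Hspa5, 65 in Xbp1, 72 and 176 in Hsp90b1, 230 in Canx and 232 in Calr. Herpud1 carried ERSE-II 124 bases before its start. A match is a run of letters and says nothing of use in these rats. The windows of Pdia4 and Sdf2l1 held none of the 3 motifs.

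All 10 genes had a lower estimate with oxonic acid, and none was called. By limma on log2(FPKM + 0.5), 0 of the 10 had an adjusted p under 0.05, and the same was true of 0% of the 14508 genes tested. The adjusted p of the 10 genes ran from 0.404 to 0.968. Estimates were below 0 for 10 of 10 genes, against 48.2% of all genes, and the median log2 difference was -0.16, against 0.005 over all genes. At an unadjusted p under 0.05 there were 5 of 10 genes on the lower side, where the background was 5.17%, and 0 on the higher side, where it was 4.32%. The 10 genes vary together across libraries, so these counts are not 10 separate observations. In 0 of the 10 genes were the libraries of the groups free of overlap, and 0.965% of all genes had all oxonic acid libraries below all vehicle libraries.

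Reads in genes, computed back from FPKM, numbered 14.5 to 18.5 M (mega) per oxonic acid library and 15.2 to 18.3 M per vehicle library. Each of the 10 genes had at least 281 reads in every library. Proximal tubule markers were abundant in every library. The phosphate transporter Slc34a1 ran from 1597 to 2021 FPKM with oxonic acid and from 1441 to 1929 FPKM with vehicle. The inner medullary urea transporter Slc14a2 reached 16.0 FPKM among the oxonic acid libraries and 0.505 FPKM among the vehicle libraries. Mitochondrial transcripts took 11.6 to 13.5% of reads with oxonic acid and 9.23 to 12.1% with vehicle.

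Oxonic acid library 5 stood apart from the other 9 for this group of genes. It held the lowest value of all 10 libraries in 10 of the 10 genes, whereas it was the lowest library for 6.99% of all genes tested. The mean of log2(FPKM + 0.5) over the 10 genes, set against its average over libraries, was -0.35 in that library. In oxonic acid libraries 1 to 4 it was 0.03, -0.08, 0.05 and -0.06, and in vehicle libraries 1 to 5 it was 0.08, 0.13, 0.05, 0.14 and 0.00. Vehicle library 4 was the highest of all 10 for 3 of the 10 genes, against 22.4% of all genes tested. Over all genes tested, vehicle library 4 lay farthest out on the first principal component, the main axis of spread among libraries. It was at 39.8 there, against -13.7 to 15.5 in the other libraries, with oxonic acid library 5 at 1.1. The difference of each of the 10 genes is given below with and without oxonic acid library 5. Without it, 8 of 10 estimates stayed below 0, the median log2 difference was -0.11, and 3 genes had an unadjusted p under 0.05, where 5.26% of all genes did on the lower side. The smallest adjusted p was then 0.414 in limma's test. The count of 5 genes at an unadjusted p under 0.05 also depended on other single libraries: it was 3 without oxonic acid library 4, and 2 without vehicle library 1, 2 or 4.

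**Figure D2:**
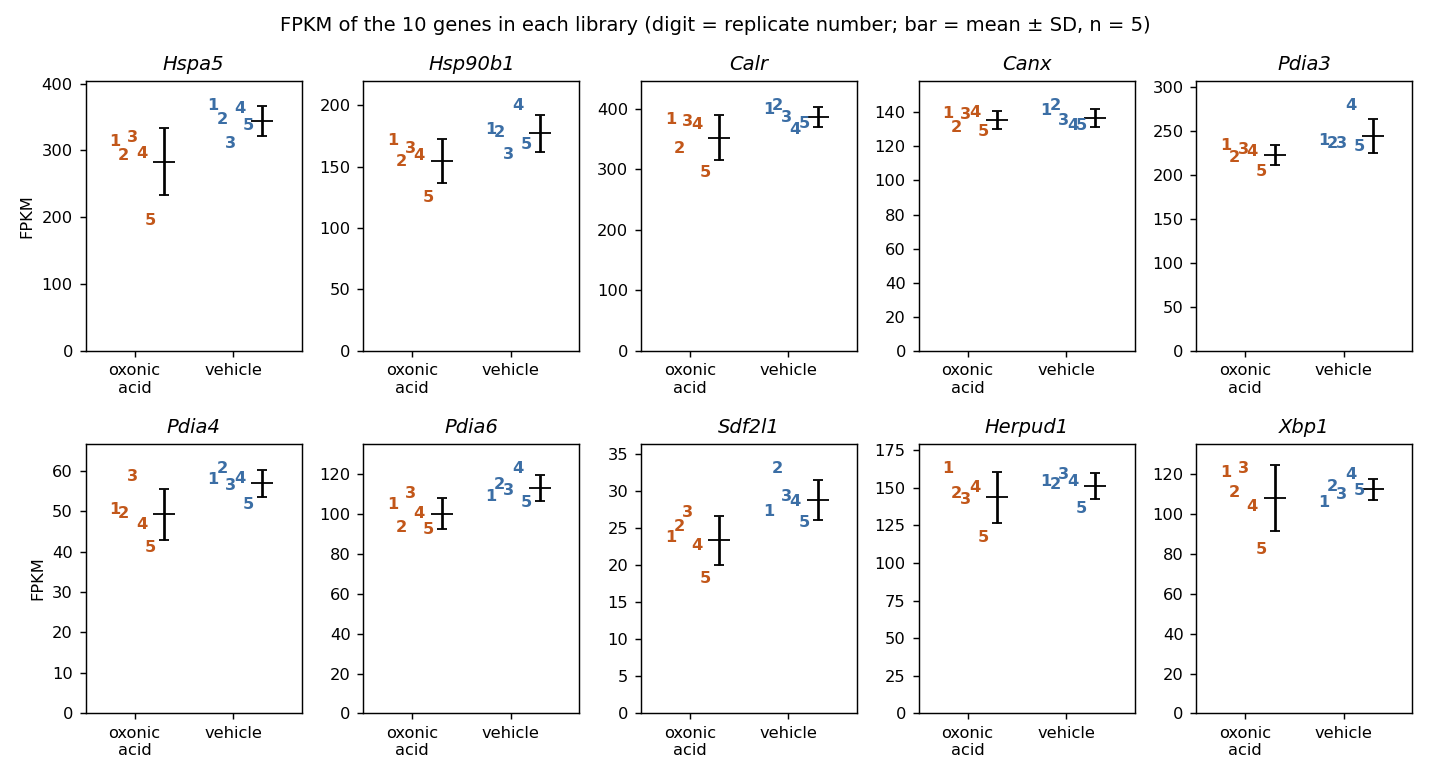
FPKM of each of the 10 genes (one panel each, linear axis from 0) in the 5 oxonic acid libraries (orange digits, left) and the 5 vehicle libraries (blue digits, right), with the mean ± SD of each group in black. Digits are replicate numbers, and the orange 5 is the lowest value in all 10 panels.

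Hspa5 (ENSRNOG00000018294, chromosome 3, 13838304 to 13842762, plus strand, as the authors placed it on a build they do not name in the labels) encodes BiP, the ER Hsp70 that binds nascent chains and holds the stress sensors inactive. It measured 313, 292.1, 319, 295 and 195 FPKM in oxonic acid libraries 1 to 5, against 367, 346, 310.2, 362 and 337 FPKM in vehicle libraries 1 to 5. The groups overlapped through oxonic acid libraries 1 and 3 and vehicle library 3, and library 5 lay 33.1% below the next lowest value. Means were 283 ± 50.3 FPKM under oxonic acid, against 344 ± 22.5 FPKM under vehicle (SD, n = 5 each), and the log2 difference was -0.30 (SE 0.12, adjusted p = 0.487 by limma). Without oxonic acid library 5 the difference was -0.17 (SE 0.06, limma adjusted p = 0.414), and the mean of the other 4 was 305 ± 13.3 FPKM (SD, n = 4). The smaller estimate came with a smaller error, and its 95% interval ran from -0.32 to -0.03.

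Hsp90b1 (chromosome 7, 27226569 to 27240533, minus strand) encodes GRP94, the ER Hsp90, which folds integrins and Toll-like receptors. It measured 171, 154, 165, 159 and 125 FPKM in oxonic acid libraries 1 to 5, against 179.9, 178, 159.5, 199.7 and 168 FPKM in vehicle libraries 1 to 5. Vehicle library 4 was its highest and oxonic acid library 5 its lowest, and the groups overlapped between 159.5 and 171 FPKM. The log2 difference was -0.20 (SE 0.09, limma adjusted p = 0.522), with means of 155 ± 18.0 and 177 ± 15.2 FPKM for oxonic acid and vehicle (SD, n = 5 each). It was -0.12 without oxonic acid library 5, with a 95% interval of -0.28 to 0.03. Without vehicle library 4 as well, a setting chosen after the values were seen, it was -0.08, with a 95% interval of -0.21 to 0.05.

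The lectin chaperones Calr and Canx hold glycoproteins in the same folding cycle, and the difference between their estimates was not tested. Calreticulin (Calr, chromosome 19, 25956771 to 25961666, minus strand) is soluble, also buffers ER calcium, and had the highest FPKM of the 10 genes. It measured 382, 334, 378, 373 and 294 FPKM in oxonic acid libraries 1 to 5, against 399, 405, 386, 365 and 376 FPKM in vehicle libraries 1 to 5. Oxonic acid libraries 2 and 5 lay below all vehicle libraries, and the other 3 fell inside the vehicle range. Its log2 difference was -0.14 (SE 0.08, limma adjusted p = 0.577), and -0.08 without oxonic acid library 5, with a 95% interval of -0.21 to 0.06. Calnexin (Canx, chromosome 10, 35800942 to 35833861, minus strand), the membrane-bound homologue, measured 139.6, 131, 139, 140.2 and 129 FPKM with oxonic acid, against 141, 144, 135, 132 and 132 FPKM with vehicle. The highest library held 1.12 times the lowest, the narrowest spread of the 10 genes. Its log2 difference was -0.01, with a 95% interval of -0.11 to 0.09 (limma adjusted p = 0.968), and 0.01 without oxonic acid library 5.

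The protein disulfide isomerases Pdia3, Pdia4 and Pdia6 form and shuffle disulfide bonds. Pdia3 (ERp57, chromosome 3, 113376983 to 113400707, plus strand) works with the lectin chaperones. It measured 234, 220.1, 229, 227 and 204 FPKM in oxonic acid libraries 1 to 5, against 239.6, 236, 236, 279 and 232 FPKM in vehicle libraries 1 to 5. Only oxonic acid library 1 reached the vehicle range, and vehicle library 4 lay far above the other vehicle libraries. The log2 difference was -0.13 (SE 0.06, limma adjusted p = 0.536) and was -0.10 without oxonic acid library 5, and -0.05 without that library and vehicle library 4. The gene overlaps Ppip5k1 on the opposite strand, at a mean of 9.17 FPKM, and the labels do not say whether strand was used in counting.

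Pdia4 (ERp72, chromosome 4, 77470636 to 77489535, minus strand) acts in complexes with BiP. It measured 50.4, 49.5, 58.5, 46.8 and 41.1 FPKM in oxonic acid libraries 1 to 5, against 57.8, 60.6, 56.3, 58.1 and 51.6 FPKM in vehicle libraries 1 to 5. Oxonic acid library 3 fell inside the vehicle range and the other 4 lay below it. The log2 difference was -0.21 (SE 0.08, limma adjusted p = 0.481), and -0.15 (SE 0.07, limma adjusted p = 0.537) without oxonic acid library 5.

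Pdia6 (P5, chromosome 6, 42568220 to 42585652, plus strand) also binds BiP and damps the sensors IRE1 and PERK. It measured 105, 93.3, 110.3, 100.1 and 92.2 FPKM in oxonic acid libraries 1 to 5, against 109, 115, 112, 123 and 106 FPKM in vehicle libraries 1 to 5. As with Pdia4, oxonic acid library 3 was inside the vehicle range and the others below it. Means were 100.2 ± 7.70 FPKM under oxonic acid, against 113 ± 6.50 FPKM under vehicle (SD, n = 5 each), and the log2 difference was -0.17 (SE 0.06, adjusted p = 0.422 by limma). Library 5 was only 1.15% below the next lowest value here, and the difference without it was -0.15.

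Sdf2l1 (chromosome 11, 88122271 to 88124513, plus strand) encodes a soluble ER protein that works with the ER J-protein Dnajb11 to keep BiP clients from aggregating. It had the lowest FPKM of the 10 genes and the smallest unadjusted p, 0.0125. It measured 23.7, 25.2, 27.1, 22.7 and 18.2 FPKM in oxonic acid libraries 1 to 5, against 27.3, 33.1, 29.3, 28.6 and 25.8 FPKM in vehicle libraries 1 to 5. Only vehicle library 5 lay within the oxonic acid range. The log2 difference was -0.30 (SE 0.10, limma adjusted p = 0.404), and -0.22 without oxonic acid library 5, with a 95% interval of -0.40 to -0.04. Means were 23.4 ± 3.33 FPKM under oxonic acid, against 28.8 ± 2.73 FPKM under vehicle (SD, n = 5 each).

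Herpud1 and Xbp1 had differences near 0 apart from library 5. Herpud1 (chromosome 19, 11046909 to 11057254, minus strand) encodes a membrane protein of ER-associated degradation. It measured 163, 146, 142, 150.5 and 117 FPKM in oxonic acid libraries 1 to 5, against 154, 152, 159, 154 and 136 FPKM in vehicle libraries 1 to 5, and its highest library was oxonic acid library 1. Its log2 difference was -0.08 (SE 0.08, limma adjusted p = 0.772), and -0.01, with a 95% interval of -0.15 to 0.13, without oxonic acid library 5. Xbp1 (chromosome 14, 85753760 to 85758145, plus strand) is the transcription factor that IRE1 splicing activates, and gene-level FPKM adds its spliced and unspliced forms together. It measured 121, 111, 123, 104 and 82.0 FPKM in oxonic acid libraries 1 to 5, against 106, 114, 109.9, 120.1 and 112 FPKM in vehicle libraries 1 to 5. The log2 difference was -0.07 (SE 0.10, limma adjusted p = 0.845) and turned to 0.03 without oxonic acid library 5.

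**Figure D3:**
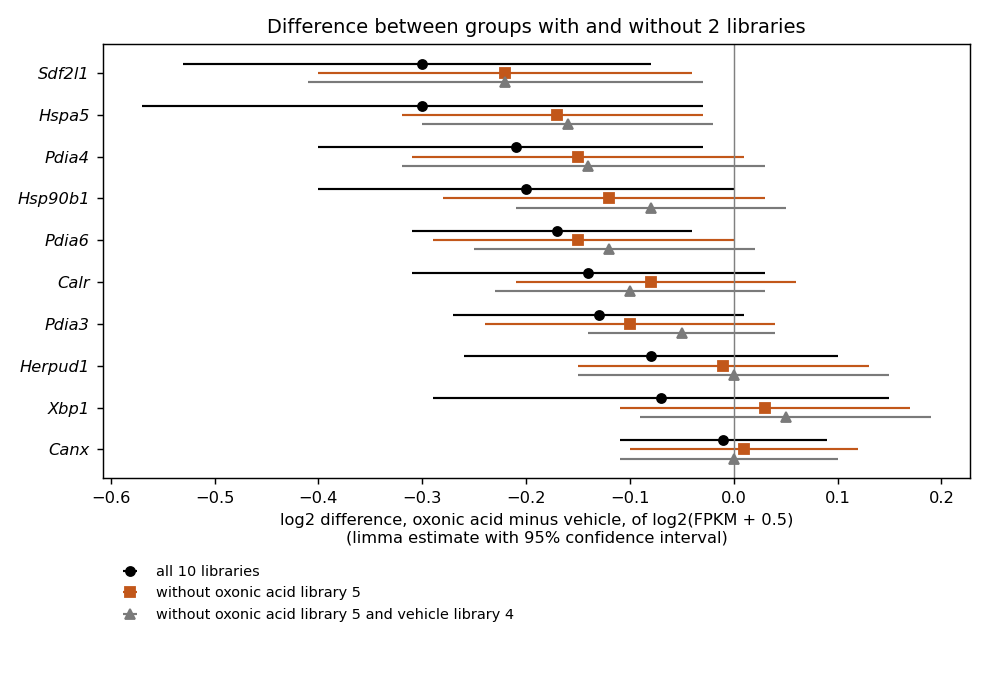
Log2 difference (oxonic acid minus vehicle, with 95% confidence interval) of each of the 10 genes in all 10 libraries (black circles), without oxonic acid library 5 (orange squares) and without that library and vehicle library 4 (grey triangles). Sdf2l1 and Hspa5 lie furthest below 0 in all 3 settings, and with all 10 libraries Canx, Herpud1 and Xbp1 lie nearest to 0.

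Presence of an exact ERSE match in these windows did not order the differences. Inexact forms of the element and positions outside the windows were not searched. Among the 5 genes with the element the log2 differences were -0.30 for Hspa5, -0.20 for Hsp90b1, -0.14 for Calr, -0.07 for Xbp1 and -0.01 for Canx. Herpud1, with ERSE-II, had -0.08. Sdf2l1 and Pdia4, with no exact match in their windows, had -0.30 and -0.21.

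The numbers in the library names fall into 3 runs, which the labels do not call batches. Run A holds oxonic acid libraries 1 to 3 and no vehicle library, run B oxonic acid library 4 and vehicle libraries 1 to 3, and run C oxonic acid library 5 and vehicle libraries 4 and 5. Within run B, 9 of the 10 genes were lower with oxonic acid, the exception being Canx at 0.01 on the log2 scale. Hspa5 differed by -0.21 there and Sdf2l1 by -0.39. Within run C all 10 were lower, with -0.84 for Hspa5 and -0.56 for Sdf2l1, and that comparison rests on oxonic acid library 5. With the runs as a block the median log2 difference of the 10 genes was -0.25, with 7 of 10 at an unadjusted p under 0.05, where the share of all genes on the lower side was 3.23%. The smallest adjusted p was 0.718 in that limma fit. Since run A has no vehicle library, the blocked values rest on oxonic acid libraries 4 and 5 alone against vehicle, and without library 5 only run B compares the groups.

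Most of the 10 genes moved together from library to library. Pearson's r of a gene with the mean of the other 9 over the 10 libraries was highest for Hspa5 (0.94), Hsp90b1 (0.92) and Pdia4 (0.90) and lowest for Canx (0.53). These values are a description, since all genes share the same libraries and scaling. Without oxonic acid library 5 and vehicle library 4, r over the other 8 libraries was 0.70 for Hspa5, 0.89 for both Calr and Pdia6, 0.24 for Herpud1 and 0.15 for Xbp1.

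The gene outside the group whose pattern was most like the mean of the 10 was Dnajb11, with r = 0.97 and Spearman's rho = 0.92 over 10 libraries. It led 11805 genes with a mean of at least 1 FPKM, after symbols with a provisional-style prefix were left out. Those prefixes included Rn, so settled symbols that begin with Rn, such as those of Rnf genes, were left out too. Dnajb11 encodes ERdj3, the ER J-protein that hands clients to BiP, and its RefSeq window (GRCr8) holds ERSE-II beginning 10 bases before its start, shown with the element in capitals.
Dnajb11, chr11:91672780-91672830, minus strand: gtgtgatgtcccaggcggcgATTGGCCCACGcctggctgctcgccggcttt
Dnajb11 measured 45.7, 42.3, 45.7, 44.8 and 36.1 FPKM in oxonic acid libraries 1 to 5, against 46.5, 46.5, 45.3, 46.7 and 44.8 FPKM in vehicle libraries 1 to 5. Without oxonic acid libraries 5 and 2, the pair farthest from the median level of the 10 genes, r was 0.95. The next were Stip1 and l7Rn6 (r = 0.94 each), the ER to Golgi cargo receptor Tmed10 (0.91), Dph5 and Pald1 (0.90 each), and Ebpl and the ER thioredoxin-related gene Tmx3 (0.89 each). Without oxonic acid libraries 5 and 2, r of these genes ran from 0.44 for Tmx3 to 0.89 for Dph5. Among these, Ebpl had groups that did not overlap, at 5.89 ± 0.797 FPKM under oxonic acid, against 7.99 ± 0.986 FPKM under vehicle (SD, n = 5 each, limma adjusted p = 0.333). The genes most unlike the group were Top3b (r = -0.95), Kit (-0.92), Nqo2 (-0.91) and Gpld1 (-0.90). Without oxonic acid libraries 5 and 2 their r was -0.68, -0.77, -0.55 and -0.82 in that order. As the extremes of 11805 genes, these correlations carry no test.

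The wider ER machinery showed small differences, and 0 genes of the lists below passed limma's adjusted threshold. The 8 lists of ER genes held 206 tested genes besides the 10, of which 129 were lower and 77 higher, with a median log2 difference of -0.02. At an unadjusted p under 0.05, 15 of the 206 were lower and 4 higher, beside shares of 5.17% and 4.32% among all genes tested, of which 48.2% had an estimate below 0. Oxonic acid library 5 was the lowest of all 10 libraries for 35 of the 206, beside 6.99% of all genes.

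Other ER chaperones and foldases had 25 of 39 tested genes lower, a median log2 difference of -0.06, and oxonic acid library 5 lowest for 12 of the 39. Those with the smallest p were the collagen chaperone Serpinh1, the glucosidase Mogs and the folding factor Erp29, at log2 differences of -0.20, -1.17 and -0.13 (limma adjusted p of 0.414, 0.424 and 0.445). Mogs lay at 0.186 to 0.398 FPKM in the oxonic acid libraries and at 0.298 to 3.55 FPKM in the vehicle libraries. Manf, a secreted ER stress factor, measured 114 ± 19.2 FPKM under oxonic acid, against 136 ± 9.7 FPKM under vehicle (SD, n = 5 each, limma adjusted p = 0.481). The BiP exchange factor Hyou1 measured 30.3, 30.3, 32.1, 30.9 and 22.0 FPKM in oxonic acid libraries 1 to 5, against 35.2, 32.7, 29.2, 28.0 and 30.9 FPKM in vehicle libraries 1 to 5. Its oxonic acid library 5 lay far below the other 4. Creld2 measured 28.6 ± 5.80 FPKM under oxonic acid, against 33.7 ± 5.95 FPKM under vehicle (SD, n = 5 each).

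The 3 sensors had estimates near 0. Ern1 (IRE1) measured 4.68 ± 0.508 FPKM under oxonic acid, against 4.72 ± 0.445 FPKM under vehicle, and Eif2ak3 (PERK) measured 10.4 ± 0.553 FPKM under oxonic acid, against 10.9 ± 0.708 FPKM under vehicle (SD, n = 5 each). Atf6 measured 19.9 ± 2.31 FPKM under oxonic acid, against 19.4 ± 2.64 FPKM under vehicle (SD, n = 5 each). Their log2 differences were -0.01, -0.06 and 0.04, with standard errors of 0.09, 0.06 and 0.11.

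In the IRE1 and XBP1 list 18 of 28 tested genes were lower, with a median of -0.02, led by the translocon pore Sec61a1 at 54.5 ± 2.60 and 59.3 ± 2.64 FPKM for oxonic acid and vehicle (SD, n = 5 each, limma adjusted p = 0.490). The XBP1 target Dnajb9 had a log2 difference of -0.14 and the signalling adaptor Traf2 of -0.15. The mannosidase-like Edem1, another XBP1 target, measured 39.4 ± 5.61 FPKM under oxonic acid, against 40.0 ± 5.55 FPKM under vehicle. In the ATF6 list 8 of 18 were lower, with a median of 0.02. The smallest p there belonged to the liver-type factor Creb3l3, at 0.394 ± 0.226 and 1.13 ± 0.798 FPKM for oxonic acid and vehicle (SD, n = 5 each, limma adjusted p = 0.472). The list level of oxonic acid library 5 was -0.15, against 0.00 to 0.02 in the other oxonic acid libraries and -0.01 to 0.06 in the vehicle libraries. The protease that cuts ATF6, Mbtps1, had a log2 difference of 0.09.

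The PERK and ATF4 list had 27 of 37 tested genes lower and a median of -0.05, which was -0.01 without oxonic acid library 2 and -0.03 without vehicle library 3 or 4. Its high library was vehicle library 4. Atf4 measured 88.7, 89.5, 97.6, 75.6 and 108 FPKM in oxonic acid libraries 1 to 5, against 77.4, 88.5, 81.7, 126 and 96.2 FPKM in vehicle libraries 1 to 5. Here oxonic acid library 5 was the highest of its group, unlike its place in the 10 genes. Ddit3 (CHOP) measured 19.3, 22.3, 22.8, 18.4 and 22.5 FPKM with oxonic acid, against 16.9, 21.4, 17.4, 31.8 and 32.8 FPKM with vehicle, where libraries 4 and 5 were high. The eIF2 phosphatase subunit Ppp1r15a measured 8.05 ± 0.382 and 9.46 ± 1.57 FPKM for oxonic acid and vehicle, and the pseudokinase Trib3 0.461 ± 0.115 FPKM under oxonic acid, against 0.544 ± 0.109 FPKM under vehicle (SD, n = 5 each). By smallest p, Cebpb, Mthfd2 and the stress cytokine Gdf15 differed by -0.37, -0.47 and -0.66 on the log2 scale (adjusted p of 0.414, 0.485 and 0.494 by limma). Gdf15 measured 26.4, 46.1, 41.9, 40.4 and 43.9 FPKM with oxonic acid, against 46.0, 50.1, 39.7, 91.7 and 109 FPKM with vehicle, where libraries 4 and 5 were again high.

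ER-associated degradation had 19 of 30 tested genes lower and a median of -0.02. The ubiquitin-conjugating Ube2j1 and the cofactor Ubxn6 had log2 differences of -0.19 and -0.14, and the ER-anchored transcription factor Nfe2l1 of 0.12. Derl3, a marker of secretory cells, was listed at 0 FPKM in all 10 libraries, so whether it was counted is uncertain. Translocation genes had 24 of 33 lower and a median of -0.05, which was -0.01 without vehicle library 4 and -0.02 without oxonic acid library 2. Without vehicle library 4 and oxonic acid library 5, 15 of 33 were lower and the median was 0.00. The list was led by the signal peptidase subunit Sec11a at 47.4 ± 3.04 and 56.4 ± 3.94 FPKM for oxonic acid and vehicle (SD, n = 5 each, limma adjusted p = 0.333) and the glycosyltransferase subunit Rpn1 at 126 ± 5.28 and 139 ± 7.96 FPKM for oxonic acid and vehicle. Srp14 was listed at only 0.310 to 1.31 FPKM over all libraries, low for a subunit of the signal recognition particle, so its log2 difference of 0.59 is uncertain. ER to Golgi transport had 17 of 32 lower (median -0.01), with Sar1b, Sec24b and Cope at -0.12, 0.09 and -0.12.

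ER calcium genes had 9 of 18 lower and a median of 0.01, and they held both directions. The calcium-binding Rcn1 measured 21.9, 20.4, 24.3, 23.4 and 24.7 FPKM in oxonic acid libraries 1 to 5, against 25.6, 27.6, 27.6, 28.3 and 27.1 FPKM in vehicle libraries 1 to 5. The release channel Itpr1 measured 23.3 ± 2.00 FPKM under oxonic acid, against 19.3 ± 1.72 FPKM under vehicle (SD, n = 5 each). Neither gene's groups overlapped, with log2 differences of -0.25 and 0.27 and adjusted p of 0.333 and 0.370 by limma. The store sensor Stim2 had a log2 difference of 0.12.

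Heat shock genes of the cytosol had 15 of 19 lower and a median of -0.09, which was -0.03 without vehicle library 4 and -0.06 without oxonic acid library 5. Without both, 11 of 19 were lower. Its level was lowest in vehicle library 5 (-0.14) and highest in vehicle library 4 (0.24). The small heat shock gene Hspb6 was the exception with the smallest p, at 21.2 ± 0.675 FPKM under oxonic acid, against 17.9 ± 0.894 FPKM under vehicle (SD, n = 5 each, limma adjusted p = 0.327). Dnaja1 had a log2 difference of -0.16. Hsp90aa1 lay at 0.501 to 1.33 FPKM under oxonic acid and 0.737 to 1.60 FPKM under vehicle, low for this gene, and is uncertain. Mitochondrial chaperones had 5 of 11 lower and a median of 0.01, with Htra2, Grpel1 and Dnaja3 at -0.11, -0.12 and 0.06. Oxonic acid library 5 was the lowest of all 10 for 6 of the 19 cytosolic and 0 of the 11 mitochondrial genes.

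**Figure D4:**
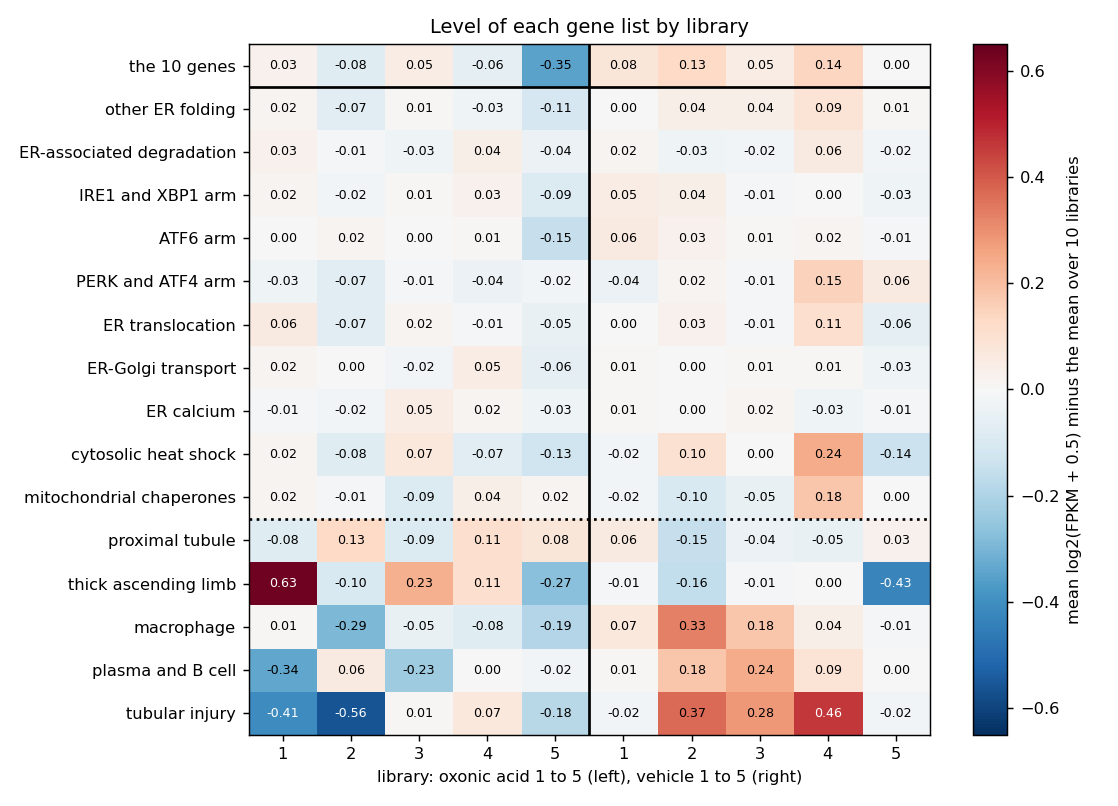
Mean level of each gene list by library, as mean log2(FPKM + 0.5) minus the mean over 10 libraries, with oxonic acid libraries 1 to 5 left and vehicle libraries 1 to 5 right of the black line, and cell marker lists below the dotted line. The top row, for the 10 genes, is -0.35 in oxonic acid library 5 and between -0.08 and 0.14 in the other 9.

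Markers of other states and cells also had estimates away from 0, and 0 of them passed limma's adjusted threshold. These lists were chosen with earlier results of these data known. Among all genes tested, 48.2% had an estimate below 0. At an unadjusted p under 0.05, 5.17% of all genes were lower and 4.32% higher. Of 22 tubular injury markers, all measured and tested, 20 were lower with oxonic acid and 15 had an unadjusted p under 0.05. Their summed level ran from 1303 to 2251 FPKM with oxonic acid and from 2136 to 4509 FPKM with vehicle, much of it osteopontin (Spp1). The injury list was lowest in oxonic acid library 2 (-0.56), where the 10 genes stood at -0.08, and it was -0.18 in oxonic acid library 5. It was highest in vehicle libraries 4 (0.46) and 2 (0.37), where the 10 genes stood at 0.14 and 0.13. Macrophage markers were lower in 15 of 15 tested, with a summed level of 433 to 550.2 FPKM with oxonic acid and 509.9 to 699 FPKM with vehicle. Fibroblast and matrix markers were lower in 11 of 13 tested (median -0.15) and T and NK cell markers in 8 of 10 (median -0.26), each with 4 lower at an unadjusted p under 0.05. The T and NK cell list also had 1 higher at that threshold, Cd28 at a log2 difference of 0.49. Most markers of tubule segments, podocytes and endothelium had higher estimates. These included 12 of 16 for proximal tubule (median 0.06), 9 of 10 for podocytes (median 0.21) and 8 of 10 for endothelium (median 0.12). Collecting duct markers were higher in 12 of 14 (median 0.32, 7 at an unadjusted p under 0.05) and distal tubule markers in 6 of 7 (median 0.34, 4 at an unadjusted p under 0.05). A list for inner medulla and thin limb had a median of 0.27, with 7 of 9 above 0. Its level was 1.16 in oxonic acid library 3 and 0.43 in library 1, against -0.47 to 0.10 in the other oxonic acid libraries. In vehicle libraries it ran from -0.60 to 0.29. The collecting duct level was also highest in oxonic acid libraries 1 (0.39) and 3 (0.31). Whether some cortex samples held more medulla was not tested. The part of these cells and of injury in the ER chaperone differences was not tested. Plasma cells are rich in ER chaperones, and their markers were scarce. All 15 plasma and B cell markers summed to 13.7 to 19.8 FPKM with oxonic acid and to 15.6 to 21.5 FPKM with vehicle, with Mzb1 under 0.5 FPKM and Derl3 at 0 in every library. The 10 genes themselves summed to 1573 ± 165 FPKM under oxonic acid, against 1751 ± 62.8 FPKM under vehicle (SD, n = 5 each). Proximal tubule markers were at 0.08 and thick ascending limb markers at -0.27 in oxonic acid library 5, inside the range of the other libraries in both cases. Distal tubule markers were at 0.22 in that library, the highest of all 10, against -0.45 to 0.20 in the others.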

How the data were processed

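RNA was extracted from kidney cortex with Trizol and poly-A selected, per the labels' protocols, which do not say whether libraries were directional. The submitters' processing notes name featureCounts 1.5.0-p3, StringTie 1.3.3b, HISAT2 2.0.5 and fastp. Build and annotation: not given in the sources used here. The authors deposited FPKM per gene and library. FPKM times gene length gave whole multiples of a library constant (100.0% of values above 0 within 0.01), which returned reads. The authors' library size was 0.977 to 1.04 times the summed reads, and their scaling was kept. No 2 libraries agreed within sampling noise (lowest chi-square per degree of freedom 5.00).

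Genes averaging 0.5 FPKM or more were tested on log2(FPKM + 0.5) with limma 3.58.1 (mean-variance trend) in R 4.3.3, two-sided, with Benjamini-Hochberg adjustment over all genes tested and a threshold of 0.05. The pseudocount understates fold changes of low genes. The script was checked on simulated data. The members, lists and tests were chosen with earlier results of these data known. Named genes are the 10 members, 14 fixed sensors and effectors, the 3 smallest p of each pathway list, and the 8 most and 4 least alike genes, besides markers and genes singled out after their values were seen (Ppip5k1, Birc5, Hnrnpa3, Cdc27, Dnajc3, Tap2 and SNORA3). Promoters are from RefSeq (GRCr8), and protein sequences were not used here. Same-numbered libraries deviated from their group means with correlations of -0.013 to 0.203. For numbers 1 to 4, the oxonic acid library correlated more with some other vehicle library. For number 5 it did not (0.203, against at most 0.006), and both libraries of that number are in run C. The labels state no pairing. Alternatives covered the pseudocount, filter, scaling, voom, array weights, blocks and left-out libraries. Python 3.11.15 and matplotlib 3.10.9 drew the figures.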

Additional observations from a re-analysis of the deposited data

Results flagged for a closer look

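Among 128 sets of 5 libraries (1 gene in 1 group), 11 held a library whose gap to its nearest neighbour took more than 0.71 of the range. Chance gives about 1 in 20 for a set not chosen by its values. These sets share libraries, and some genes, such as Gpld1, were chosen by their values in these data. That rate is therefore no reference for the 11. For Hspa5, oxonic acid library 5 measured 195 FPKM against 292.1 to 319 FPKM in the other oxonic acid libraries. For Hyou1 the same library measured 22.0 FPKM against 30.3 to 32.1 FPKM. That library was also the highest of its group for Traf2, at 13.4 FPKM against 10.5 to 11.1 FPKM, and for Gpld1, at 4.28 FPKM against 2.96 to 3.33 FPKM. Vehicle library 4 was the highest for Pdia3, at 279 FPKM against 232 to 239.6 FPKM in the other vehicle libraries. It was also the highest for Ubxn6, at 34.4 FPKM against 27.5 to 29.5 FPKM, and for Grpel1, at 139 FPKM against 103 to 109.9 FPKM. It was the lowest for Nfe2l1, at 37.4 FPKM against 41.6 to 43.2 FPKM. Nfe2l1 was high in oxonic acid library 3, at 48.6 FPKM against 43.3 to 44.2 FPKM. Sec61a1 was low in oxonic acid library 2, at 50.0 FPKM against 55.2 to 56.7 FPKM, and Gdf15 was low in oxonic acid library 1, at 26.4 FPKM against 40.4 to 46.1 FPKM.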

How the results depend on the processing

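Under 23 alternatives, 0 of the 10 genes was called in any, and the median log2 difference of the 10 ran from -0.25 (runs of library numbers as a block) to -0.09 (without oxonic acid library 5 and vehicle library 4, added after seeing the data). Leaving out 1 library at a time gave -0.19 to -0.11, and 8 to 10 genes lower. Over all genes, 0 were called in limma's fit, with 1377 at an unadjusted p under 0.05, and voom on the recovered reads called 0 with 1414. Array weights called 1 gene (Tap2) and leaving out vehicle replicate 1 called 1 (SNORA3), and leaving out any other single library called 0. Of 230 estimates for single genes, 8 changed sign. Canx was 0.02 with quantile normalization, ran from -0.02 to 0.01 with 1 library left out, and was 0.00 or 0.01 without oxonic acid replicate 2 or 5 or vehicle replicate 1 or 2. Xbp1 ran from -0.12 to 0.03 with 1 library left out, the upper value without oxonic acid replicate 5, and was 0.05 without that library and vehicle replicate 4, where Herpud1 was 0.00. With the runs as a block, which rests on oxonic acid libraries 4 and 5, Xbp1 was -0.27 and Herpud1 -0.17. The cause was not tested. With the replicate number as a block, which pairs nothing by the labels, 0 genes were called over all genes and 0 of the 10 (adjusted p 0.347 to 0.969, 5 at an unadjusted p under 0.05, median -0.16). Medians of the 10 pathway lists changed sign in 26 of 230 cases, over 7 lists, all near 0. Each of the 10 genes had at least 281 reads per library.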

Other observations

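Promoter windows holding ERSE or ERSE-II belonged to 38 gene symbols, of which 24 were tested, 18 of them outside the 10 genes. That set was formed after the data were seen and by sequence alone. Of the 18, 8 were lower with oxonic acid, beside 48.2% of all genes tested, and the median log2 difference was 0.01. At an unadjusted p under 0.05 there were 2, beside shares of 5.17% lower and 4.32% higher among all genes tested. The 2 were Birc5, an inhibitor of apoptosis of dividing cells, at -0.32 and the RNA-binding Hnrnpa3 at -0.14 (limma adjusted p of 0.389 and 0.401). Oxonic acid library 5 was the lowest of all 10 libraries for 6 of the 18, against 6.99% of all genes tested. These 6 were Birc5, Cdc27, Creld2, Dnajb11, Dnajc3 and Hyou1, named after their values were seen, of which the last 4 encode ER folding proteins. Dnajc3, the ER J-protein p58IPK, had a log2 difference of 0.05 (limma adjusted p = 0.819).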
